A study of Homo sapiens with 18 samples.

Results

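The nuclear-encoded subunits of the mitochondrial respiratory chain were followed through knockdown of USP13 or ZHX2 in the human cell line 786-O, which was established from a clear-cell renal carcinoma and has no working VHL. Members were chosen by a rule on gene symbols, set with earlier results of these data known. It took the protein-coding genes of the NDUFA, NDUFB, NDUFC, NDUFS and NDUFV families, SDHA to SDHD, the UQCR family and CYC1. It also took the COX4 to COX8 families and the ATP5F1, ATP5M and ATP5P families. The rule found 86 of 27083 genes with a listed transcript, of which 36 belong to complex I, 4 to complex II, 10 to complex III, 17 to complex IV and 19 to complex V. COXFA4, whose older symbol is NDUFA4, falls outside the rule, and the mitochondrially encoded subunits were not analysed here.

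The data were 18 RNA-seq libraries in 6 groups of 3. In the USP13 experiment, cells carried the hairpin sh50 or sh52 against USP13, a deubiquitinating enzyme, or a control hairpin (shCtrl). In the ZHX2 experiment, cells carried the hairpin sh43 or sh45 against ZHX2, a zinc-finger and homeobox transcription factor, or a control hairpin with libraries of its own. All 6 groups are the same line with the same VHL loss, so that no group has intact VHL. Nothing in the labels tells whether replicates came from separate cultures, and p-values therefore measure only the spread between these libraries, which may be technical.

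Electrons from NADH enter the chain at complex I, those from succinate at complex II, and both pass through ubiquinone to complex III, through cytochrome c to complex IV and from there to oxygen. Complexes I, III and IV pump protons, and complex V, the ATP synthase, uses the gradient to make ATP. Most subunits are encoded in the nucleus, each at its own locus, and complex II has no mitochondrially encoded subunit. Clear-cell renal carcinoma is known for low oxidative phosphorylation. In RNA from bulk cultures, fewer cells of a kind and less RNA per cell cannot be told apart.

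The regions upstream of 5 members are shown first because the results turn on these genes. SDHD, UQCRH, COX8A and ATP5MC1 had the largest differences between the USP13 and ZHX2 responses in complexes II to V, and ATP5PF is the member called under each USP13 hairpin in all alternatives tried and with each library left out. Each sequence holds the 250 bases before the start site in the RefSeq table (GRCh38.p14), 5′ to 3′ on the strand of the gene, and capitals mark matches to the NRF1 palindrome (the first capitals in SDHD), CCGGAAG (ETS family, which includes GABPA) or AAGATGGCG (YY1) on either strand. For ATP5PF, the table lists 2 start sites, and the first listed was used. The positions are chr11:112086623-112086872 (+) for SDHD, chr1:46303448-46303697 (+) for UQCRH, chr11:63974370-63974619 (+) for COX8A, chr17:48892537-48892786 (+) for ATP5MC1 and chr21:25735055-25735304 (-) for ATP5PF.
SDHD: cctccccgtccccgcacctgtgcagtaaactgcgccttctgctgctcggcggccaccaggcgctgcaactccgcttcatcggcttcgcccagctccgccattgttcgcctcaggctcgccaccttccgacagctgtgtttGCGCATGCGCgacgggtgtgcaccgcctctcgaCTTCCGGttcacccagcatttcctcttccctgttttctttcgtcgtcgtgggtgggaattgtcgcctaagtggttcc
UQCRH: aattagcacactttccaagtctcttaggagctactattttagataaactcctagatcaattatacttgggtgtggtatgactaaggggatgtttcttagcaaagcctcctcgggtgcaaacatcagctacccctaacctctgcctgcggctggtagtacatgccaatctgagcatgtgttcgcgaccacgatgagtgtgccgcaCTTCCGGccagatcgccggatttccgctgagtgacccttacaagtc
COX8A: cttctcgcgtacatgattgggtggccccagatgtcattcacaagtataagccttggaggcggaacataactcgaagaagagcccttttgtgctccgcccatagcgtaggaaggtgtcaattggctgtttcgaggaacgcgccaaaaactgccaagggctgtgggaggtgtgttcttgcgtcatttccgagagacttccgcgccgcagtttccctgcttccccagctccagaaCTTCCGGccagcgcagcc
ATP5MC1: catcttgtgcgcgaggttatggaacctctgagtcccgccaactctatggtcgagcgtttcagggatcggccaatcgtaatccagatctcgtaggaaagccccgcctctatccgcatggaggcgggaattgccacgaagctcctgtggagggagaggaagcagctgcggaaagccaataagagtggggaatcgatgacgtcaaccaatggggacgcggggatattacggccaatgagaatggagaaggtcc
ATP5PF: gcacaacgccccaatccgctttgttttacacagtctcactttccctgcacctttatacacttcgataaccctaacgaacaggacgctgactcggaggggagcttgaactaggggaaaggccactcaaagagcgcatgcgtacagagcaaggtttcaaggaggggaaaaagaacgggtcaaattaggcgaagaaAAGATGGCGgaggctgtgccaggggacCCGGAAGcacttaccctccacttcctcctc

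In SDHD, the NRF1 match begins 110 bases before the start and the ETS match 77 bases before it. The ETS match of UQCRH begins 46 bases before the start and that of COX8A 18 bases before it. ATP5PF holds a YY1 match 57 bases and an ETS match 30 bases before the start, and the ATP5MC1 window has none of the 3 motifs. An entry was found for 68 of the 86 members, and windows ran from 250 bases before to 50 bases after the start. A match to NRF1 was present in 4 of 68 members (5.88%) and in 1.75% of 15843 protein-coding promoters of the same length. The ETS motif was present in 20 of 68 (29.4%) against 14.2%, and the YY1 motif in 8 of 68 (11.8%) against 2.74%. No match overlapped another in the 5 sequences, and 29 of 68 members (42.6%) held at least 1 motif, against 17.6% of all promoters. A match is a description of letters and not of binding.

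The targeted genes were checked in every library. USP13 was at 36.9, 34.7 and 31.8 CPM, that is counts scaled to the library's total with TMM factors, in its control libraries, at 16.8, 17.2 and 20.5 under sh50 and at 14.9, 18.1 and 17.9 under sh52. ZHX2 was at 340, 344 and 344 CPM in its control, at 38.6, 43.4 and 38.6 under sh43 and at 90.8, 82.1 and 79.6 under sh45. No library of a hairpin overlapped its control, and the log2 changes were -0.92 and -1.03 for USP13 and -3.09 and -2.03 for ZHX2. The labels' treatment protocol lists hairpins 43 and 45 with USP13, while titles and characteristics put them under ZHX2. The assignment of the titles, which the ZHX2 levels follow, was kept. Each target was also read in the other experiment. USP13 was called lower under sh43 (log2 -0.23, adjusted p = 0.0156) and was at 0.17 under sh45 (adjusted p = 0.0852). ZHX2 was called lower under sh50 (-0.20, adjusted p = 0.0086) and sh52 (-0.17, adjusted p = 0.0467), so the comparison of the 2 knockdowns sets a smaller fall of ZHX2 beside a larger one.

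Libraries held between 11192600 and 16511300 estimated counts. Of the line's 7 markers, PAX8, VIM, KRT8, KRT18 and NNMT were abundant in both controls (164 TPM or more), PAX2 was at 46.7 and 25.4 TPM, and CA9 was at 0.84 TPM or less. Of 5 leukocyte markers, PTPRC, CD3E, CD14 and LYZ were at 0.88 TPM or less in the controls, and CD68, at 31.5 and 45.0 TPM, was the exception. Of 4 endothelial markers, PECAM1, VWF and CDH5 were at 0 TPM in both controls and ESAM at 0.83 TPM or less. Markers also moved with the hairpins. CD68 was at -0.59 and 0.30 (log2) under sh50 and sh52 and at -1.27 and 0.53 under sh43 and sh45, each a call, and ESAM rose by 1.98 under sh43, to 2.91 TPM. Of the line's 6 markers tested in the USP13 experiment, 1 rose (16.7%) and 4 fell (66.7%) under sh50, and 3 fell (50%) under sh52. Of 7 tested in the ZHX2 experiment, 3 rose and 3 fell (42.9% each) under sh43. Under sh45, 2 rose (28.6%) and 3 fell (42.9%). Over all genes, 10.2% rose and 11.3% fell under sh50, and 5.45% and 6.56% under sh52. The shares of all genes under sh43 were 33.5% and 35.2%, and those under sh45 25.3% and 27.3%. VIM (-0.55 and -0.38), KRT8 (-0.51 and -0.31) and KRT18 (-0.39 and -0.19) fell under both USP13 hairpins. Under both ZHX2 hairpins, NNMT (-1.58 and -0.65) and PAX2 (-0.85 and -0.63) fell, whereas PAX8 and KRT18 rose. KRT8 was called in opposite directions under sh43 and sh45. Mitochondrial rRNA made up 4.26% ± 0.161 of counts with sh50 and 3.70% ± 0.136 with sh52, beside 2.62% ± 0.0783 in their control (SD, n = 3, here and below). With sh43 it made up 1.55% ± 0.031 and with sh45 3.09% ± 0.26, beside 1.25% ± 0.0724. The part of this share and of the markers in the results below was not tested.

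Of the 86 members, 78 passed the filter on low counts in both experiments. The other 8 are UQCRHL, COX4I2, COX6A2, COX6B2, COX7A1, COX7B2, COX8C and ATP5MGL, with 0 to 7 counts in any library. The paired isoforms COX4I1, COX6A1, COX6B1, COX7A2, COX7B and COX8A, which are the widely expressed forms, were all measured. UQCRH and UQCRHL are near-identical in sequence, so their split depends on how the authors' quantification divided shared reads, and ATP5MF-PTCD1 is a readthrough that shares exons with ATP5MF.

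Compared per length (TPM, which divides by transcript length and total), complex IV had the highest median mRNA level per gene in both controls. Over its 11 measured members, this median was 1110 TPM in the USP13 control and 669 TPM in the ZHX2 control. Complex II was lowest, at 127 and 102 TPM. COX7C, a small subunit of complex IV, had the highest level of any member in the USP13 control (1877 TPM), and ATP5F1E, the epsilon subunit of the ATP synthase, in the ZHX2 control (1706 TPM). NDUFA5 was lowest in complex I (29.9 and 23.5 TPM) and SDHC lowest in complex II (37.2 and 41.4 TPM).

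Changes were tested with edgeR's quasi-likelihood test across all genes, and a gene is called higher or lower at a Benjamini-Hochberg adjusted p under 0.05. Under sh50, 16 of 78 members rose and 1 fell, against 10.2% of all 13712 genes called higher and 11.3% called lower. Under sh52, 12 rose and 4 fell, against 5.45% and 6.56% of all genes. The share of members called higher was thus 20.5% and 15.4%. The members' median log2 change was 0.12 under sh50 and 0.02 under sh52, and over all genes it was 0.003 and -0.0008. Both comparisons use the same control libraries.

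These counts rest on few libraries. Under sh50, the number called higher was 7 without sh50 replicate 1, 8 without sh50 replicate 2, 8 without control replicate 1 and 9 without control replicate 2, and ATP5F1B, the 1 called lower, was lost without sh50 replicate 2. Under sh52, the number called higher was 6 without sh52 replicate 3, 4 without control replicate 1 and 7 without control replicate 2, and the number called lower was 2 without sh52 replicate 3, control replicate 2 or control replicate 3. Replicate 1 of sh52 had the fewest genes with counts (15487), and without it 10 members rose and 3 fell under sh52. With effective transcript lengths as offsets, the sh52 counts were 9 higher and 5 lower.

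**Figure D1:**
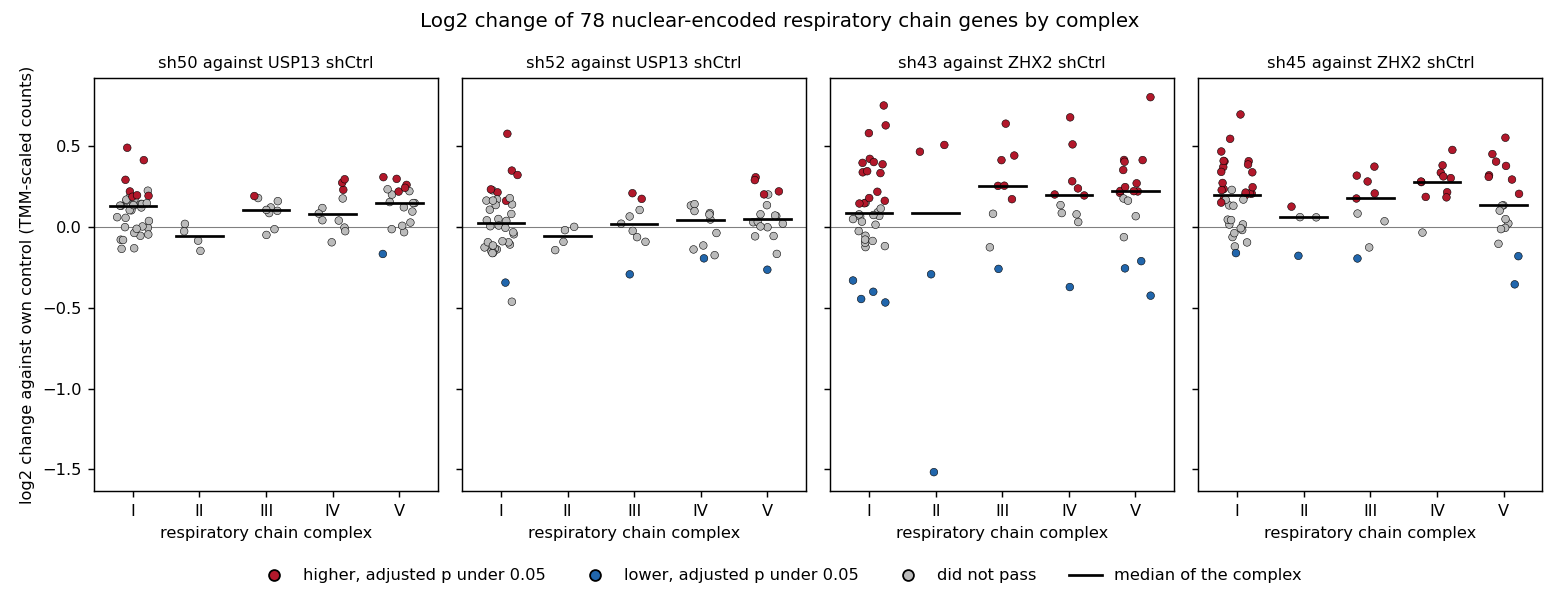
Log2 change of each of the 78 measured members against its own control, by complex, for the 4 hairpins; each point is a gene, red and blue points passed the test as higher or lower, grey points did not, and bars are medians of a complex. Changes under sh50 and sh52 lie between -0.46 and 0.57, and SDHD under sh43 lies at -1.52, below every other point.

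By complex, rises under sh50 were found in complexes I, III, IV and V, and those under sh52 in complexes I, III and V. Under sh50, 7 of 36 complex I members (19.4%), 1 of 9 in complex III (11.1%), 3 of 11 in complex IV (27.3%) and 5 of 18 in complex V (27.8%) rose, against 10.2% of all genes. Under sh52, these counts were 6 (16.7%), 2 (22.2%), 0 and 4 (22.2%), against 5.45%. No complex II member passed under either hairpin, and SDHD, the gene with the largest change of all under sh43, was at 0.02 and -0.02. The medians of complex I were 0.13 and 0.02 (log2), those of complex V 0.15 and 0.05, and those of complex II -0.06 under each.

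NDUFB1, a small membrane subunit of complex I, had the largest rise of any member under both USP13 hairpins. Its level was 13.6, 15.0 and 20.3 CPM in the control, 23.3, 24.9 and 20.4 under sh50 and 23.97, 24.3 and 24.5 under sh52. All libraries of both hairpins lay above the control, with the highest control library next to the lowest of sh50. The log2 change was 0.49 (SE 0.12, adjusted p = 0.0052) under sh50 and 0.57 (SE 0.12, adjusted p = 0.0026) under sh52. Without control replicate 1, the call under sh50 was lost (adjusted p = 0.055).

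Another pair of accessory subunits of complex I, NDUFS5 and NDUFB9, was called under each hairpin. NDUFS5 was at 190 ± 15.1 CPM in the control, 217 ± 11.8 under sh50 and 222 ± 4.77 under sh52, with log2 changes of 0.19 and 0.23. NDUFB9 changed by 0.19 and 0.16, and its adjusted p under sh52 of 0.04998 stood at the threshold and was lost in 8 of the 9 fits that leave out a library (adjusted p up to 0.183). Under sh50, NDUFB9 was lost without sh50 replicate 1 or control replicate 1 or 2 (adjusted p up to 0.0746). NDUFS5 lost its call under sh50 without sh50 replicate 1 or 2 or control replicate 1 or 2 (adjusted p up to 0.183) and under sh52 without control replicate 1 (0.105). Among the core subunits, NDUFS3 rose by 0.29 and NDUFS8, which holds iron-sulfur clusters, by 0.19 under sh50. NDUFS3 lost its call without sh50 replicate 2 (adjusted p = 0.0986), and NDUFS8 without sh50 replicate 1 or 2 or control replicate 2 (up to 0.125).

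In the ATP synthase, all 4 members that rose under sh52 and 4 of the 5 that rose under sh50 belong to the peripheral stalk and the membrane part. Of the 18 measured members of complex V, 4 belong to the stalk and 5 to the membrane part, apart from the c ring. Whether rises favour these parts was not tested. ATP5PF, coupling factor 6 of the peripheral stalk, was at 103, 102 and 105 CPM in the control, 123.9, 119.2 and 123.4 under sh50 and 134, 118 and 128 under sh52. The control lay below every hairpin library. Its log2 change was 0.24 (SE 0.060, adjusted p = 0.0045) and 0.29 (SE 0.060, adjusted p = 0.0019), and it passed in each alternative and with each library left out. ATP5PD, subunit d of the same stalk, changed by 0.31 and 0.22, ATP5MG, subunit g of the membrane part, by 0.22 and 0.31, and ATP5MK, a further small membrane subunit, by 0.30 and 0.20. Of these, ATP5MG lost its call under sh50 without sh50 replicate 1 (adjusted p = 0.0643), ATP5PD under sh52 without sh52 replicate 3 or control replicate 1 (up to 0.132), and ATP5MK under sh52 (0.0482) in 6 of the 9 fits that leave out a library (up to 0.3). ATP5F1D, the delta subunit, rose under sh50 (0.26), a call lost without sh50 replicate 2 or control replicate 1 or 2 (up to 0.0884). The other stalk members, ATP5PB at 0.01 and 0.002 and ATP5PO at 0.15 and 0.07, did not pass.

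ATP5F1B, the catalytic beta subunit, fell. It was at 713, 708 and 709 CPM in the control, 650, 617 and 630 under sh50 and 583, 618 and 572 under sh52, with no overlap. The log2 change was -0.17 (SE 0.046, adjusted p = 0.0091) under sh50 and -0.27 (SE 0.046, adjusted p = 0.00027) under sh52. Without sh50 replicate 2, the former gave an adjusted p of 0.0603.

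Further members were called under 1 of the USP13 hairpins. Complex IV members COX7B (0.29), COX5B (0.27) and COX4I1 (0.23) rose under sh50, and COX7C fell by 0.20 on the log2 scale under sh52. NDUFA6 at 0.35 and NDUFS6 at 0.32 rose under sh52, while NDUFB6 fell by 0.35 and UQCRH, the hinge protein of complex III, by 0.29. UQCRH was at 168, 167 and 191 CPM in the control and 129, 154 and 146 under sh52. Of these calls, those of COX7B and NDUFA6 held in every alternative and with each library left out. Under sh50, COX5B was lost without sh50 replicate 1 or 2 or control replicate 1 or 2 (adjusted p up to 0.114), and COX4I1 without sh50 replicate 1 or control replicate 1 (up to 0.0957). Under sh52, NDUFS6 was lost without sh52 replicate 1 or 3 or control replicate 1 or 2 (up to 0.0955), and NDUFB6 without control replicate 2 (0.0575). UQCRH was lost without sh52 replicate 1 or 3 or control replicate 3 (up to 0.105), and COX7C without sh52 replicate 2 or 3 or control replicate 2 or 3 (up to 0.161).

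The hairpins themselves were compared. In sh52 against sh50, 1 member was higher and 10 were lower, against 5.48% and 4.73% of all genes. UQCRFS1, the Rieske iron-sulfur protein, was the 1 higher (log2 0.26, SE 0.062, adjusted p = 0.0081). NDUFB6 (-0.34) and UQCRB (-0.27) had the smallest p-values among the lower members, and the c-ring genes ATP5MC3 (-0.29) and ATP5MC1 (-0.26) were among them. No call of this comparison held with every library left out. The number lower was 1 without sh50 replicate 1, 0 without sh50 replicate 2, 17 without sh50 replicate 3, 3 without sh52 replicate 1, 2 without sh52 replicate 3 and 5 without control replicate 2. The number higher was 0 without sh50 replicate 2 and 2 without sh52 replicate 2.

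Under the ZHX2 hairpins, more members passed, as did more of all genes. Under sh43, 40 of 78 members rose and 11 fell, against 33.5% of all 13600 genes called higher and 35.2% called lower. Under sh45, 44 rose and 5 fell, against 25.3% and 27.3% of all genes. As shares, 51.3% and 56.4% of the members rose and 14.1% and 6.41% fell. Their median log2 change was 0.16 under sh43 and 0.19 under sh45, and over all genes it was -0.02 and -0.0069. The number called lower under sh45 was 3 without sh45 replicate 2 or control replicate 2. The 2 comparisons share their control libraries.

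Transcript length moved with these counts. The measured members had a median transcript length of 879 bases, and 46 of 78 were under 1000 bases, whereas the median over all genes tested was 3036 bases. All genes under 1000 bases had a median log2 change of 0.08 under sh43 and 0.25 under sh45, and the members in that class had 0.17 and 0.27. An alternative fit removed the trend over transcript length together with that over mean level, and is called the length trend here and below. It cannot tell the part of length from that of level. With this trend removed, 27 members rose (34.6%) and 21 fell (26.9%) under sh43, against 35.9% and 33.6% of all genes in that fit. Under sh45, 17 rose (21.8%) and 13 fell (16.7%), against 26.8% and 26.9%. The share of members called higher was thus below that of all genes under each ZHX2 hairpin in that fit. The members' median was then 0.05 under sh43 and 0.02 under sh45, beside 0.02 and 0.0017 over all genes. Under sh50 and sh52, the same step gave 22 higher and 1 lower, and 12 higher and 6 lower. The shares called higher were 28.2% and 15.4%, against 11.4% and 6.5% of all genes.

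**Figure D2:**
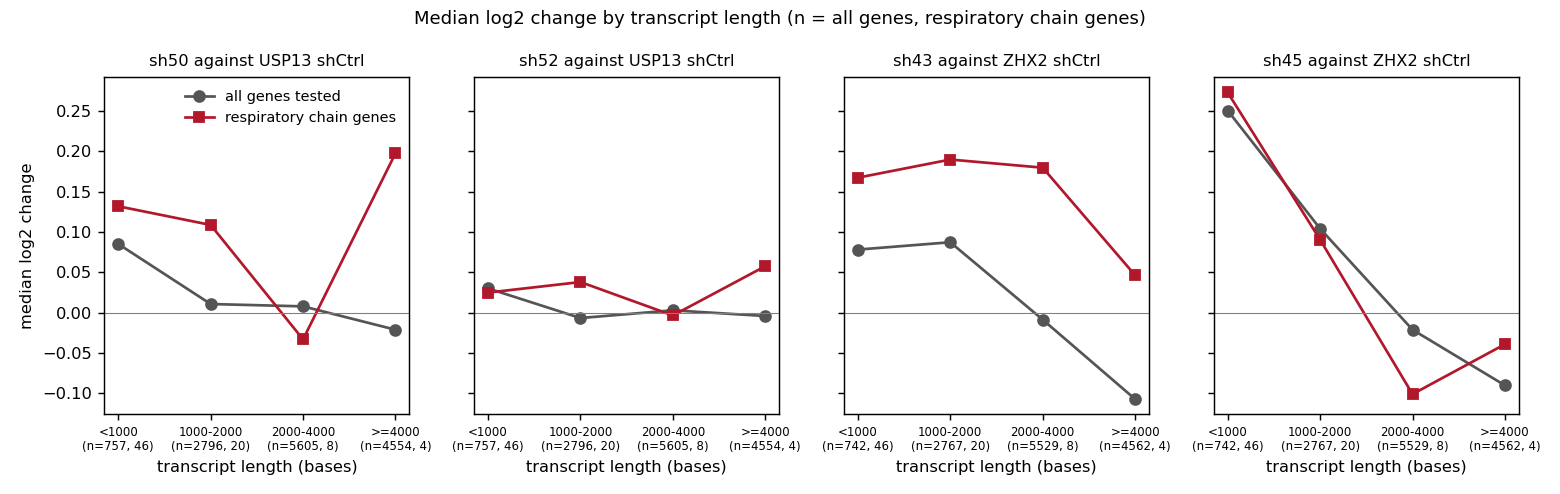
Median log2 change against transcript length (bases, 4 classes) for all genes tested (grey) and for the measured members (red), in each hairpin against its control; the number of genes and of members stands under each class. Under sh45 the members run beside all genes of their length, at 0.27 against 0.25 under 1000 bases, and the 2 classes of the longest transcripts hold 8 and 4 members.

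Summed over a complex in CPM, every sh43 library was above every control library in complexes I, III, IV and V. Every sh45 library was above them in complexes I, II, III and IV. Complex I summed to 2589 ± 131 CPM in the ZHX2 control libraries, 2819 ± 75.2 under sh43 and 2924 ± 119.5 under sh45, and complex IV to 1343 ± 72.3, 1524 ± 71.7 and 1638 ± 67.5. Per length, all 86 members summed to 27470 ± 538 TPM in the control, 29050 ± 369 under sh43 and 28000 ± 530 under sh45. In TPM, complexes II and III were not higher under sh45. Complex II was at 447 ± 19.4 TPM against 490 ± 8.58 in the control, and complex III at 2197 ± 23.6 against 2239 ± 50.6. Complexes I, IV and V had higher means in TPM under sh45 than in the control, by amounts close to the SD. Complex I was at 9695 ± 238 TPM under sh45 against 9503 ± 229 in the control. Complex IV was at 7392 ± 220 against 7136 ± 186, and complex V at 8265 ± 83.8 against 8098 ± 168. Complex II was lower under sh43, at 464 ± 5.40 CPM against 527 ± 12.6 in the control, and complex V overlapped the control under sh45. These sums were not tested.

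Complex II showed the largest change of any member. SDHD, a membrane anchor that holds part of the ubiquinone site, was at 65.1, 68.2 and 68.5 CPM in the ZHX2 control libraries, 22.8, 21.5 and 26.5 under sh43 and 70.9, 71.6 and 67.7 under sh45. The sh43 libraries lay far below all others, and sh45 overlapped the control. The log2 change was -1.52 (SE 0.074, adjusted p = 8.3e-16) under sh43, a fold of 0.349, and 0.06 (SE 0.067, adjusted p = 0.485) under sh45. Between the hairpins, SDHD differed by 1.58 (SE 0.074, adjusted p = 6.6e-16). All 5 listed SDHD transcripts were lower under sh43, at ratios of 0.309 to 0.393 to the control, and with each library left out the change under sh43 lay between -1.60 and -1.45.

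SDHC, the other membrane anchor, moved the opposite way under sh43. It was at 58.3, 61.7 and 63.1 CPM in the control, 88.1, 83.7 and 80.7 under sh43 and 59.4, 53.3 and 49.0 under sh45. The log2 change was 0.46 (SE 0.068, adjusted p = 1.1e-06) under sh43 and -0.18 (SE 0.070, adjusted p = 0.0332) under sh45. The latter overlapped the control and was lost without sh45 replicate 2 or 3 or control replicate 2 or 3 (adjusted p up to 0.256), with DESeq2 (0.0532) and with upper-quartile scaling.

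The catalytic pair also split under sh43. SDHB, the iron-sulfur subunit, rose from 54.9, 49.4 and 50.9 CPM in the control to 68.6, 73.5 and 78.3 under sh43 (log2 0.51, SE 0.069, adjusted p = 3.7e-07) and was at 57.2, 49.8 and 54.4 under sh45. SDHA, the flavoprotein that oxidises succinate, fell from 352, 359 and 331 CPM to 279, 286 and 284 under sh43 (log2 -0.29, SE 0.043, adjusted p = 1.2e-06). Under sh45 it was at 383, 370 and 382 CPM (log2 0.12, adjusted p = 0.0172), a call lost without control replicate 3 (0.112). Of the summed TPM of the 4 genes, SDHD held 20.9% ± 0.829 in the control, 8.22% ± 0.681 under sh43 and 20.8% ± 0.876 under sh45.

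**Figure D3:**
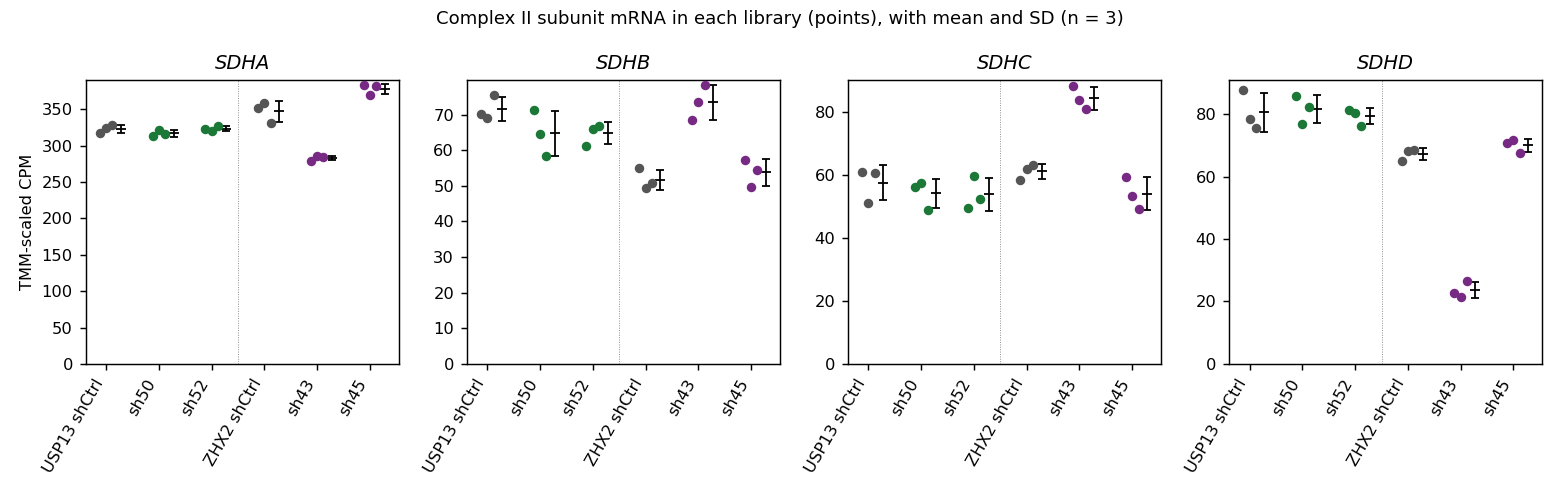
Level of the 4 complex II genes in each of the 18 libraries (points, TMM-scaled CPM, axis from 0), with mean and SD over 3 libraries; the dotted line parts the USP13 and ZHX2 experiments. SDHD under sh43, at 22.8, 21.5 and 26.5 CPM, is the 1 group apart from the rest in its panel, while SDHB and SDHC are higher there and SDHA is lower.

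The 3 genes for the c subunit of the ATP synthase encode the same mature protein, which forms the proton-carrying ring. ATP5MC1 was at 36.9, 38.9 and 36.9 CPM in the ZHX2 control libraries, 66.2, 65.0 and 65.1 under sh43 and 49.98, 47.5 and 56.0 under sh45. No groups overlapped, and its log2 change of 0.80 (SE 0.069, adjusted p = 9.7e-11) under sh43 was the largest rise of any member. Under sh45 it was 0.45 (SE 0.070, adjusted p = 6.4e-06), and 0.20 with the length trend removed. ATP5MC2 was at 155 ± 4.65 CPM in the control, 148 ± 4.15 under sh43 and 204 ± 5.16 under sh45, with log2 changes of -0.06 (adjusted p = 0.25) and 0.40 (SE 0.049, adjusted p = 1.1e-07). ATP5MC3 was at 0.07 and -0.01 and did not pass. Of the summed TPM of the 3 genes, ATP5MC1 held 30.8% ± 0.182 in the control, 44.0% ± 0.971 under sh43 and 33.0% ± 0.942 under sh45.

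**Figure D4:**
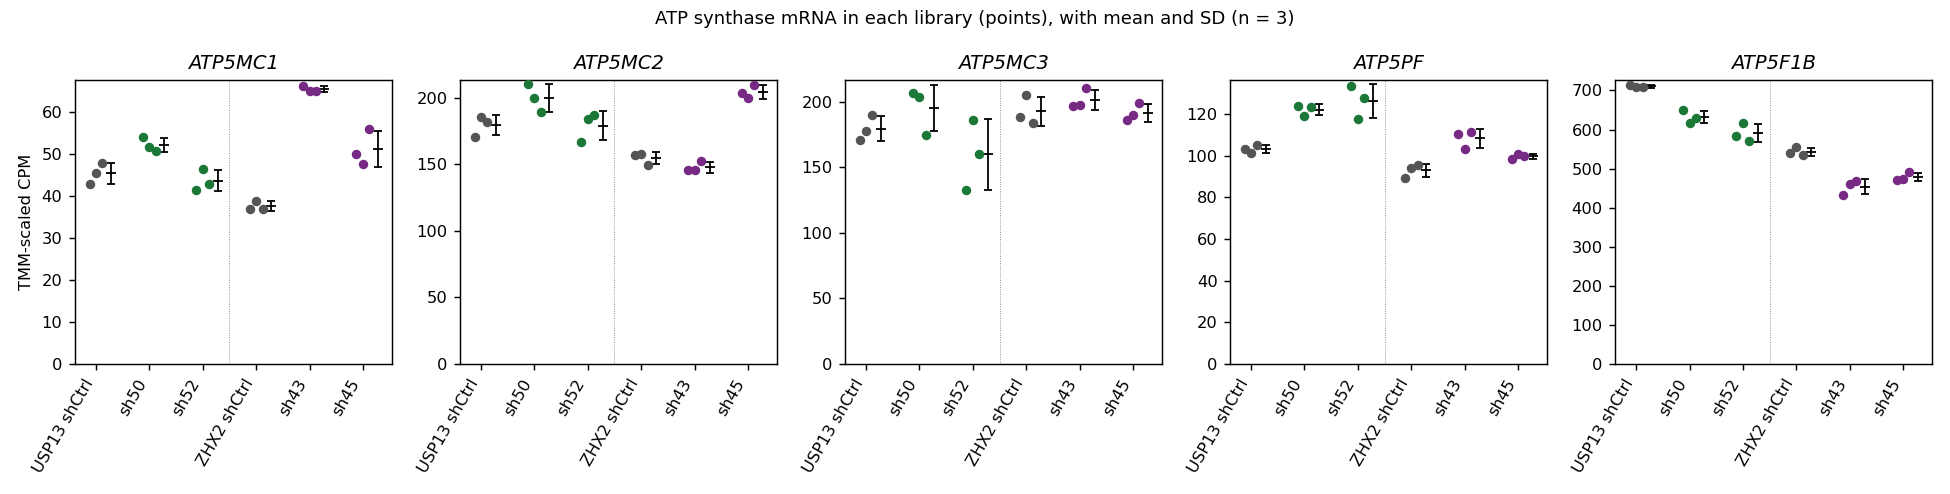
Level of 5 ATP synthase genes in each library (points, TMM-scaled CPM, axis from 0), with mean and SD over 3 libraries. ATP5MC1 is highest under sh43, at 65.4 CPM on average, ATP5MC2 under sh45 within its experiment, ATP5PF lies above the control under sh50 and sh52, and ATP5F1B lies below its control under all 4 hairpins.

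In complex V, 11 of 18 members rose (61.11%) and 3 fell (16.67%) under sh43, against 33.5% and 35.2% of all genes. Under sh45, 8 rose (44.44%) and 2 fell (11.11%), against 25.3% and 27.3%. ATP5F1B was at 539, 555 and 535 CPM in the control, 432, 461 and 469 under sh43 and 472, 473 and 491 under sh45. It thus lay below the control in every hairpin library, with log2 changes of -0.26 (SE 0.042, adjusted p = 5.8e-06) and -0.18 (SE 0.042, adjusted p = 0.0007) that passed in all alternatives. ATP5F1C, the central-stalk gamma subunit, was lower under sh43 (-0.21), whereas ATP5F1E rose (0.41 and 0.32), as did ATP5F1D, the delta subunit (0.22 and 0.29). Of these 4 calls of ATP5F1E and ATP5F1D, that of ATP5F1E under sh43 held with the length trend removed.

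The peripheral stalk split by hairpin. ATP5PB, the b subunit, was at 130, 141 and 138 CPM in the control, 161, 154 and 171 under sh43 and 109, 103 and 108 under sh45, so that the 3 groups did not overlap. It differed by -0.60 between sh45 and sh43 (SE 0.055, adjusted p = 3.3e-10). With the length trend removed, ATP5PB was no longer called in opposite directions under sh43 and sh45 against the control. ATP5PO, which joins the stalk to the head, was lower under sh43 (log2 -0.43, SE 0.059, adjusted p = 4.5e-07) and at 0.05 under sh45. In the membrane part, ATP5MG rose under each hairpin (0.35 and 0.38), ATP5MF and ATP5MK under sh43 (0.41 and 0.40) and ATP5ME under sh45 (0.55).

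In complex I, 15 of 36 members rose (41.67%) and 4 fell (11.11%) under sh43, against 33.5% and 35.2% of all genes. Under sh45, 20 rose (55.56%) and 1 fell (2.778%), against 25.3% and 27.3%. NDUFA9, a peripheral-arm subunit, was at 44.0, 49.3 and 40.8 CPM in the control, 74.3, 77.5 and 73.5 under sh43 and 40.7, 47.2 and 47.5 under sh45. Its change of 0.75 (SE 0.074, adjusted p = 1.1e-09) was the largest in complex I under sh43, followed by NDUFS6 (0.63) and NDUFB8 (0.58), and under sh45 it was 0.01. NDUFA7 had the largest change under sh45, from 31.9, 33.7 and 32.3 CPM in the control to 55.9, 49.2 and 53.2 (log2 0.69, SE 0.076, adjusted p = 1.9e-08), and was at 0.34 under sh43. NDUFS6 and NDUFA7 passed under each hairpin in all alternatives. NDUFA12, NDUFA6, NDUFB9, NDUFS3 and NDUFS5 were also called higher under each hairpin. With the length trend removed, none of them was called higher under both.

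Core subunits of complex I moved in different directions. NDUFS7, which carries the last iron-sulfur cluster before ubiquinone, was at 74.3, 76.6 and 68.8 CPM in the control, 52.9, 51.8 and 56.6 under sh43 and 89.9, 84.4 and 90.5 under sh45, with 3 separate groups. Its log2 change was -0.45 (SE 0.064, adjusted p = 8.2e-07) and 0.27 (SE 0.062, adjusted p = 0.00064), the latter 0.06 and not passing with the length trend removed. NDUFS1, the largest core subunit, was at 0.34 under sh43 and -0.04 under sh45. NDUFS8 (0.41) and NDUFV1 (0.24) rose under sh45 and were at 0.11 and -0.09 under sh43.

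NDUFB10 and NDUFA3, both accessory subunits, were also lower under sh43. NDUFB10 was at -0.47 (SE 0.068, adjusted p = 9.7e-07) under sh43 and 0.17 (adjusted p = 0.0318) under sh45, and NDUFA3 at -0.40 (adjusted p = 0.0057) and 0.40 (adjusted p = 0.0048). With the length trend removed, NDUFB10 and NDUFA3 did not pass under sh45, at -0.05 and 0.10. NDUFB10 lost its sh45 call without sh45 replicate 1 or 3 or control replicate 1 or 3 (adjusted p up to 0.191), and NDUFA3 lost its calls without sh43 replicate 2 (0.0726) and without sh45 replicate 3 (0.0595).

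In complex III, 6 of 9 members rose (66.67%) and 1 fell (11.11%) under sh43, against 33.5% and 35.2% of all genes. Under sh45, 5 rose (55.56%) and 1 fell (11.11%), against 25.3% and 27.3%. UQCRH was at 120, 141 and 126 CPM in the control, 188, 201 and 211 under sh43 and 156, 162 and 162 under sh45. The 3 groups did not overlap, with log2 changes of 0.64 (SE 0.058, adjusted p = 2.4e-10) and 0.32 (SE 0.058, adjusted p = 5.4e-05), the latter 0.08 and not passing with the length trend removed. UQCRC2, a core protein of the matrix side, was at 168, 171 and 173 CPM in the control, 145, 140 and 142 under sh43 and 150.9, 144.5 and 151.4 under sh45. It fell by 0.26 and 0.20 on the log2 scale (adjusted p = 3.6e-05 and 0.0014) in all alternatives, while its partner UQCRC1 was at 0.25 and 0.08. UQCRQ (0.44 and 0.21), UQCR10 (0.41 and 0.17) and CYC1, cytochrome c1 (0.25 and 0.28), were called higher under each hairpin. Of these 6 calls, those of UQCRQ and UQCR10 under sh43 and of CYC1 under sh45 held with the length trend removed. The call of UQCR10 under sh45 (adjusted p = 0.026) was lost without sh45 replicate 2 or control replicate 1 or 3 (up to 0.122). UQCRB, which helps bind ubiquinone, rose under sh45 (0.37) and was at 0.08 under sh43.

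In complex IV, 6 of 11 members rose (54.55%) and 1 fell (9.091%) under sh43, against 33.5% and 35.2% of all genes. Under sh45, 10 rose (90.91%) and none fell, against 25.3% and 27.3%. COX8A, the smallest subunit, was at 150, 161 and 143 CPM in the control, 211, 209 and 226 under sh43 and 203, 209 and 219 under sh45, with log2 changes of 0.51 (SE 0.053, adjusted p = 3.1e-09) and 0.47 (SE 0.053, adjusted p = 2.7e-08). It passed in all alternatives. COX7A2L, which takes part in joining complexes III and IV into supercomplexes, was at 62.3, 68.9 and 65.2 CPM in the control, 100, 106 and 108 under sh43 and 77.5, 72.6 and 73.1 under sh45. Its change was 0.68 (SE 0.061, adjusted p = 2.1e-10) and 0.18 (adjusted p = 0.0144), the latter lost without sh45 replicate 1 or control replicate 1 (up to 0.0826). COX7C fell under sh43 (-0.37, SE 0.071, adjusted p = 4.4e-05) and was at -0.04 under sh45. COX4I1 (0.33) and COX6C (0.38) rose under sh45, and both held with the length trend removed, as did COX8A. Of the 10 complex IV rises under sh45, the other 7 did not pass in that fit.

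A direct test of sh45 against sh43 called 26 members higher and 23 lower, which is 33.3% and 29.5% of the 78, against 34.2% and 32.7% of all genes. These shares are near the background. All 4 complex II members passed, 2 in each direction. SDHD (1.58), NDUFA3 (0.81), NDUFS7 (0.72) and NDUFB10 (0.64) were the highest under sh45 relative to sh43, and NDUFA9 (-0.74), SDHC (-0.64), ATP5PB (-0.60) and COX7A2L (-0.49) the lowest. With upper-quartile scaling, which shifted the median of all genes to 0.09, the split was 34 higher and 18 lower. These are 43.6% and 23.1% of the members, against 38.7% and 27.7% of all genes in that fit.

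**Figure D5:**
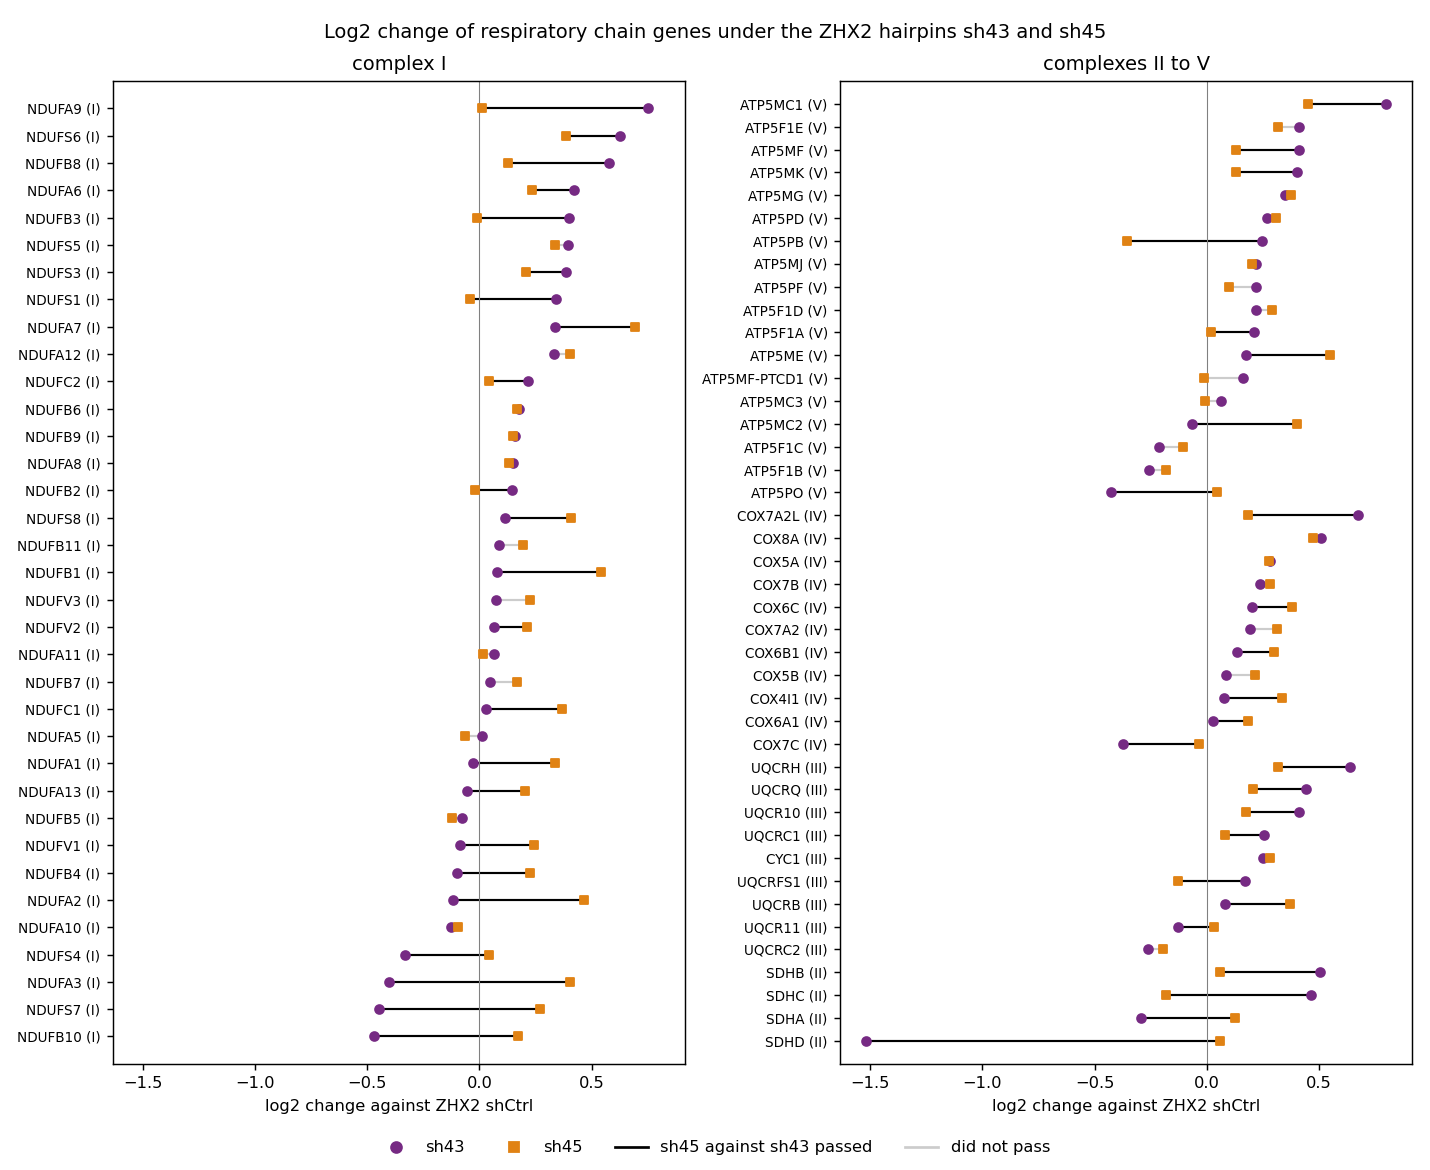
Log2 change of the measured members, all but 1, against the ZHX2 control under sh43 (purple circles) and sh45 (orange squares), sorted by sh43 within each complex; a black line means that sh45 against sh43 passed the test. SDHD has the widest gap, from -1.52 to 0.06, and NDUFA9 has the widest in complex I in the other direction, from 0.75 to 0.01.

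The response to USP13 knockdown was set against the response to ZHX2 knockdown, each as the mean of 2 hairpins against its own control, in a fit of all 18 libraries. A negative value means a lower response in the USP13 experiment. Of the members, 4 were higher and 22 lower, against 22.7% and 20.7% of all 14204 genes, and the median difference was -0.09 beside 0.01 over all genes. The members' shares were 5.13% and 28.2%. With the length trend removed, 7 were higher (8.97%) and 15 lower (19.2%), against 21.3% and 22.2% of all genes in that fit, and the median was 0.007. The share called lower was then below that of all genes. SDHD had the largest positive difference (log2 0.71, SE 0.086, adjusted p = 2.3e-08), and its change was -1.52 under sh43 and 0.06 under sh45. UQCRH (-0.65, SE 0.098, adjusted p = 1.6e-06), COX8A (-0.64, SE 0.082, adjusted p = 6.7e-08), ATP5MC1 (-0.57, SE 0.089, adjusted p = 2.9e-06) and NDUFA9 (-0.53, SE 0.11, adjusted p = 0.00012) had the largest negative ones. ATP5F1B, which fell under all 4 hairpins, differed by -0.01 (SE 0.053, adjusted p = 0.882), and ATP5PF by 0.09 (SE 0.070, adjusted p = 0.313).

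Factors that regulate the chain did not follow 1 direction. PPARGC1A, a coactivator of mitochondrial genes, rose under sh50 (0.41) and sh52 (0.48) and fell under sh43 (-0.54) and sh45 (-1.85). NRF1, a transcription factor of respiratory genes, rose under sh50 (0.51), sh52 (0.44) and sh45 (0.36) and was at -0.03 under sh43. GABPA, the DNA-binding subunit of an ETS factor of the same genes, fell under sh43 (-1.03) and sh45 (-0.60) and was at -0.06 and 0.06 under sh50 and sh52. PPARGC1B (0.84 and 0.61), PPRC1 (0.66 and 0.19) and POLRMT, the mitochondrial RNA polymerase (0.44 and 0.83), rose under sh43 and sh45. Of the 14 regulators, 4 rose under sh50 and 3 under sh52 with none lower, 9 rose and 2 fell under sh43, and 4 rose and 5 fell under sh45. The shares that rose were 28.6%, 21.4%, 64.3% and 28.6% in that order, against 10.2%, 5.45%, 33.5% and 25.3% of all genes. Those that fell under sh43 and sh45 were 14.3% and 35.7%, against 35.2% and 27.3%. The sh45 shares are thus near those of all genes. The call of PPARGC1A under sh43 was lost with the length trend removed, and that of NRF1 without control replicate 1 under sh52 (adjusted p = 0.0564) and without sh45 replicate 3 under sh45 (0.0686).

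Assembly factors, which build the complexes but are not part of them, also changed gene by gene. Of 18 factors for complex I, 5 rose under sh50, 1 under sh52, 8 under sh43 and 7 under sh45, and the number that fell was 0, 0, 1 and 3. The shares that rose were 27.8%, 5.56%, 44.4% and 38.9%, against the same shares of all genes as for the regulators, and that under sh52 is near its background. Those that fell under sh43 and sh45 were 5.56% and 16.7%, against 35.2% and 27.3% of all genes. None fell under sh50 or sh52, against 11.3% and 6.56% of all genes. NDUFAF2 rose by 0.79 and 0.80 under sh43 and sh45 and was at -0.02 and -0.07 under the USP13 hairpins. NDUFAF5, ECSIT and FOXRED1 were also called higher under both ZHX2 hairpins. The 4 complex V factors included ATPAF1, which binds the beta subunit during assembly of the head and was lower under sh50 (-0.33), sh52 (-0.61), sh43 (-0.63) and sh45 (-0.25). Without sh50 replicate 1, its adjusted p under sh50 was 0.0501, and under sh45 the call was lost without sh45 replicate 1 or control replicate 3 (adjusted p up to 0.14). For complex III, BCS1L (0.50 and 0.56) and UQCC2 (0.52 and 0.87) rose and TTC19 fell (-0.76 and -0.23) under sh43 and sh45.

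For complex IV, 10 of 22 assembly factors rose (45.5%) and 6 fell (27.3%) under sh43, against 33.5% and 35.2% of all genes. Under sh45, 1 rose (4.55%) and 4 fell (18.2%), against 25.3% and 27.3%. COA3 (-0.60 and -0.42) and COX11 fell under each. Among the 13 genes for coenzyme Q and cytochrome c, COQ8A (0.55 and 0.26) and COQ9 (0.21 and 0.20) rose under the USP13 hairpins and fell under sh43 (-0.48 and -0.78) and sh45 (-0.28 and -0.17). COQ7 also fell under both ZHX2 hairpins. The response contrast gave 0.77 for COQ8A (adjusted p = 2.3e-07) and 0.66 for COQ9 (adjusted p = 7e-09). Several of the single calls were weak: COQ8A was lost under sh52 in 6 of the 9 fits that leave out a library (up to 0.149) and under sh45 without sh45 replicate 3 (0.092). COQ9 was lost under sh50 without control replicate 2 (0.0912), under sh52 without sh52 replicate 2 or control replicate 2 or 3 (up to 0.156) and under sh45 without sh45 replicate 1 or 2 or control replicate 1 or 2 (up to 0.143). Cytochrome c itself, CYCS, rose under sh50 (0.24), sh43 (0.67) and sh45 (0.21), and ATP5IF1, the inhibitor of ATP hydrolysis by complex V, fell under sh43 and sh45 (-0.26 and -0.24).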

How the data were processed

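RNA from 18 libraries of 786-O cells was sequenced on an Illumina HiSeq as paired-end reads of 150 bases after TruSeq preparation without strand marking, per the labels' protocols. Tools listed without a role in the submitters' processing notes are Salmon 0.11.3, STAR 2.5.2b, cutadapt 1.12 and DESeq2 1.14.1, and the listed build is hg19. Each deposited file holds 60422 transcripts with an estimated count, a TPM value and lengths, per the file headers, and the authors' estimated counts were whole numbers in all libraries. Read splitting between similar transcripts was therefore the authors' and cannot be redone here.

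Transcripts were summed to 27083 genes through RefSeq (GRCh38.p14, 59301 transcripts) and GENCODE 29 (706 transcripts), and 415 without a gene name (0.0799 to 0.115% of counts) entered neither library sizes nor tests. Members and lists were chosen with earlier results of these data known. Each experiment of 9 libraries was fitted with edgeR 4.0.16 (TMM, filterByExpr, quasi-likelihood test, R 4.3.3), and p-values were adjusted by Benjamini-Hochberg over all genes tested with a threshold of 0.05. A fit of all 18 libraries gave the difference between responses. TMM-scaled CPM and SE were computed from these fits. Library totals limit precision through counting error only. Alternatives were DESeq2 1.42.0, upper-quartile scaling, no filter on low counts, a replicate block and effective lengths as offsets. Others were removal of the trend over length and mean level in 1 step (the length trend), only the groups compared, and each library left out. Named genes were the targets, members called under each hairpin of an experiment or in a contrast between hairpins or responses (up to 5 of smallest p per complex), those with the largest and smallest change per complex and hairpin, the ATP5MC genes, isoform pairs, members under the filter, and listed genes called under each hairpin of an experiment. Some genes that meet this rule are not described with values above, and names outside it were chosen after their values were seen. The counts and sums include 1 member whose own values are not reported here. No 2 files were identical.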

Additional observations from a re-analysis of the deposited data

Results flagged for a closer look

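The results below were singled out because the response to the USP13 hairpins and the response to the ZHX2 hairpins differed by a test of the difference itself, edgeR's quasi-likelihood test over 18 libraries with Benjamini-Hochberg adjustment. Values are log2 differences, USP13 response minus ZHX2 response, and no explanation was tested. For each complex, up to 5 members of smallest p-value are listed, of 8 lower and 1 higher in complex I and 5 lower and 1 higher in complex III. In the other complexes the lists are complete. The shares lower and higher were 22.2% and 2.78% in complex I, 50% and 25% in complex II and 55.6% and 11.1% in complex III. They were 36.4% and 0% in complex IV and 16.7% and 5.56% in complex V. Over all genes they were 20.7% and 22.7%, so the share lower in complex I was near that of all genes.

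In complex I, the USP13 response was lower for NDUFA9 (-0.53), NDUFA7 (-0.45), NDUFB8 (-0.39), NDUFB6 (-0.36) and NDUFB3 (-0.33). In complex II, SDHD was higher (0.71) and SDHB (-0.44) and SDHC (-0.25) were lower. In complex III, UQCRC2 was higher (0.30), while UQCRH (-0.65), UQCR10 (-0.24), UQCRQ (-0.23) and CYC1 (-0.17) were lower. In complex IV, COX8A (-0.64), COX7A2L (-0.43), COX5A (-0.34) and COX6C (-0.30) were lower. In complex V, ATP5PO was higher (0.28), while ATP5MC1 (-0.57), ATP5F1E (-0.35) and ATP5F1A (-0.17) were lower.

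A response is the mean of 2 hairpins, and for several of these genes sh43 and sh45 differed. Their log2 changes against the ZHX2 control were -1.52 and 0.06 for SDHD, 0.51 and 0.06 for SDHB, 0.46 and -0.18 for SDHC, 0.75 and 0.01 for NDUFA9 and -0.43 and 0.05 for ATP5PO. Of these genes, SDHC was called under sh45, as lower, and the others passed under sh43 and not under sh45. The difference of sh45 from sh43 passed for all 5.

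SDHC was lost in 11 of the fits that leave out a library (adjusted p up to 0.133), UQCR10 in 6 (0.101), CYC1 in 4 (0.184) and UQCRQ in 2 (0.0807). ATP5F1A was lost without ZHX2 control replicate 3. With the length trend removed, CYC1, UQCR10, UQCRQ, COX6C and ATP5F1A did not pass.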

How the results depend on the processing

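With each library left out, the members called higher and lower ranged from 7 to 24 and 0 to 1 under sh50, 4 to 14 and 2 to 6 under sh52, 0 to 2 and 0 to 17 for sh52 against sh50, 34 to 49 and 9 to 14 under sh43, 36 to 48 and 3 to 5 under sh45, 20 to 28 and 20 to 24 for sh45 against sh43, and 3 to 5 and 15 to 25 for the difference between responses. Without the filter on low counts, 7 fell under sh52. For sh52 against sh50, 16 were lower with effective lengths as offsets and 6 with only the groups compared. Upper-quartile scaling gave 3 lower under sh45. With the length trend removed, 21 fell under sh43, 17 rose and 13 fell under sh45, and 7 were higher in the difference between responses.

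That fit also reversed the sign of NDUFB9 (-0.0013), COX4I1 (-0.0877) and COX6A1 (-0.1205) under sh43, of NDUFB9 (-0.0806), NDUFB10 (-0.0533), UQCR10 (-0.0081), COX5B (-0.0510), COX6A1 (-0.0762), ATP5MF (-0.1348), ATP5MJ (-0.0219), ATP5PO (-0.1591) and HIGD2A (-0.1499) under sh45, and of COX7B (-0.1271) for sh45 against sh43. The cause was not tested.

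Replicate numbers did not pair the libraries: deviations of same-numbered libraries correlated between -0.136 and 0.071 in the USP13 experiment and between -0.086 and 0.047 in the ZHX2 experiment. With a replicate block, members higher and lower were 15 and 1 under sh50, 8 and 4 under sh52, 1 and 8 for sh52 against sh50, 40 and 11 under sh43, 44 and 5 under sh45, 26 and 22 for sh45 against sh43, and 4 and 21 for the difference between responses.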
